A study of Mus musculus with 5 samples.

Results

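The genes described here are the collagens and a set of stromal matrix genes, measured by RNA-seq in sorted pancreatic beta cells of the mouse. A gene was included if its symbol begins with Col, a number, the letter a and a digit, or if it is Dcn, Lum, Sparc, Fn1, Bgn, Fbn1, Postn, Pdgfra or Pdgfrb. This gave 54 of the 23951 genes in the deposited table: 44 collagen genes, the 9 others named, and Col4a3bp, which matches by name but encodes the ceramide transfer protein and is no collagen. The p16 group holds 3 samples from mice that carry the constructs Ins-rtTA, tet-GFP and tet-p16ink4a, and the GFP group holds 2 samples from control mice without tet-p16ink4a, all given tetracycline for a span of 10 days. Both groups therefore carry the rtTA transactivator, under insulin gene control as the name Ins-rtTA says, and the inducible green fluorescent protein. Only the p16 group also carries the inducible p16INK4a, a cell cycle inhibitor. Islets were dissociated and GFP-positive cells were sorted, so the labelled cell type rests on the insulin-driven reporter. Age, sex and strain background are not stated in these sources. The table gives 1 value per gene and group in FPKM, fragments scaled by the length of the transcript and the size of the library. No value per sample, SD or depth per library can therefore be given. Whether 2 values differ was taken from the authors' q-value, a p-value adjusted over all genes they tested, with 0.05 as the threshold.

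Collagens are secreted triple helices. Fibrillar collagens such as collagen I form the cables of connective tissue and are made mainly by fibroblasts, stellate cells and other mesenchymal cells, while collagen IV forms the sheet of basement membranes and collagen VI a beaded filament beside cells. In mouse islets the beta cells lie against the basement membrane of capillaries, which is made largely by endothelial cells. Decorin, biglycan and lumican are small proteoglycans that bind collagen fibrils, and fibronectin, fibrillin, periostin and SPARC are glycoproteins of the same matrix. Pdgfra and Pdgfrb encode receptors for platelet-derived growth factor and mark stromal cells and pericytes.

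Most of these genes were near the lower end of what the table lists. In the GFP group 4 of the 54 reached 1 FPKM, namely Col4a3bp, Col6a6, Col4a1 and Col27a1. In the p16 group 8 did, with Dcn, Col1a2, Col9a2 and Sparc in addition. The median was 0.0368 FPKM in GFP and 0.121 FPKM in p16, against 0.749 and 0.902 FPKM over all genes in the table. In 26 members both values were below 0.1 FPKM. The authors tested 13 of the 54. The other 41 were not tested and carry no q-value, so their values are described only.

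**Figure D1:**
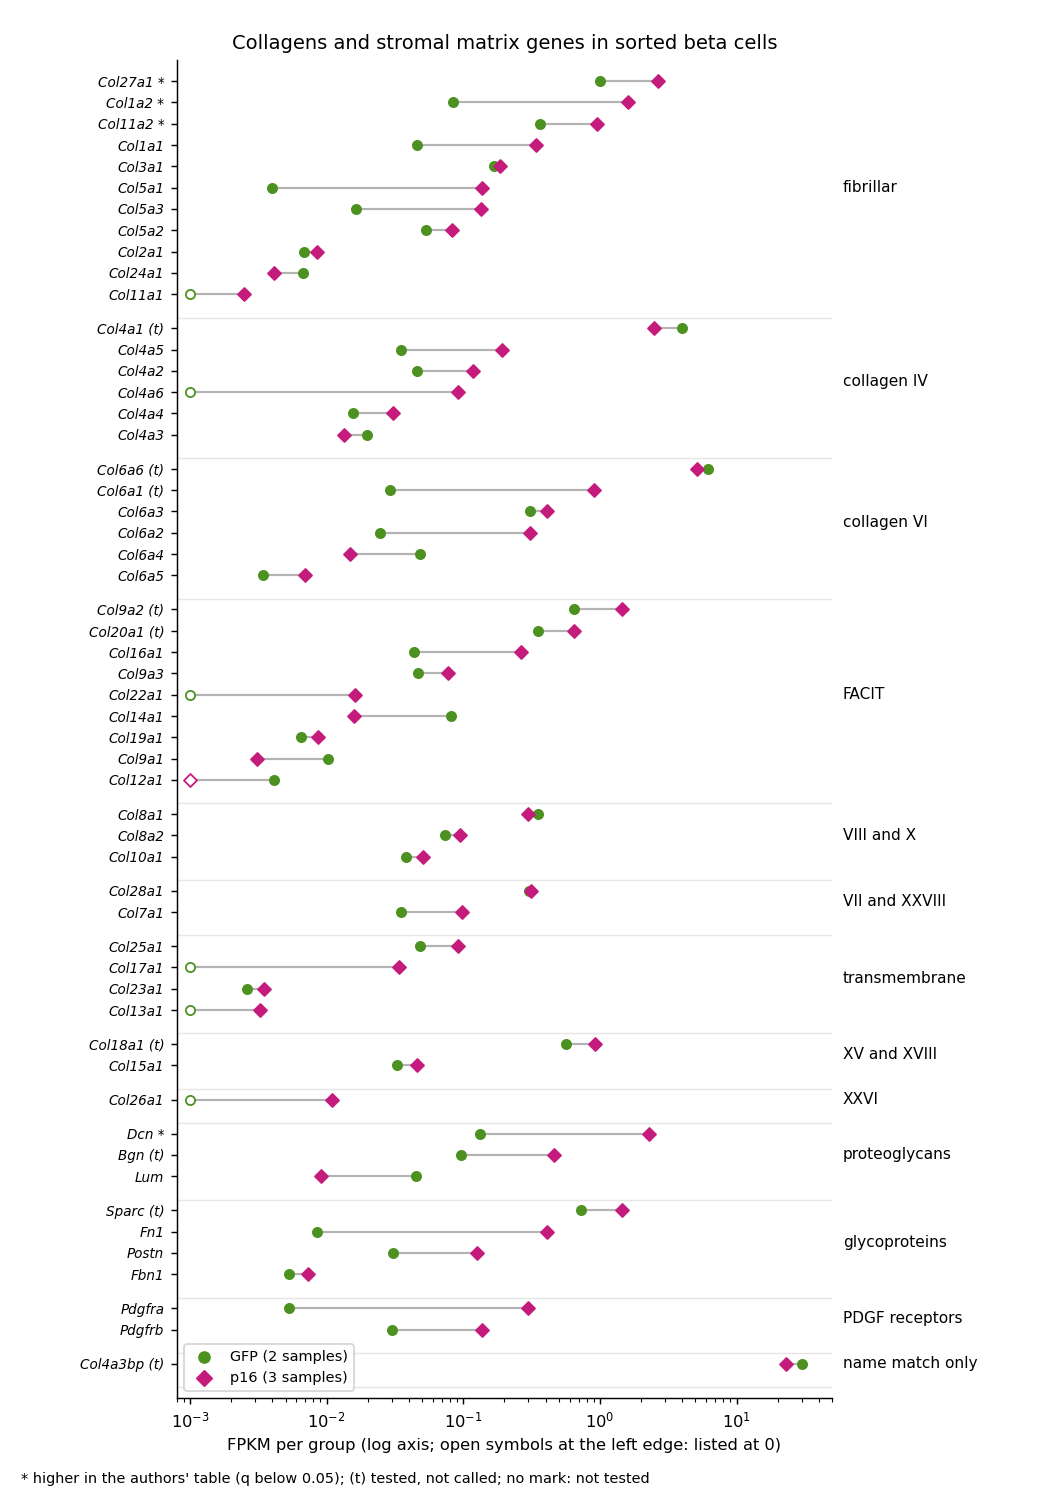
FPKM of each of the 54 genes in the GFP group (circles) and the p16 group (diamonds) on a log axis, ordered by class, with open symbols at the left edge for genes listed at 0. Col1a2 and Dcn show wide gaps towards p16, with only the p16 value above 1 FPKM, while Col6a6, Col4a1 and Col4a3bp lie slightly to the GFP side.

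In all, 4 of 54 members were higher with p16 in the authors' deposited table: the collagen genes Col1a2, Col27a1 and Col11a2, and Dcn, which encodes decorin. None was lower, by the authors' Cuffdiff q-value. At an unadjusted p below 0.05, 8 members were higher and 1 was lower. Over all 13264 tested genes, 4.32% were called higher and 1.10% lower at the q threshold, and 10.2% were higher and 7.01% lower at the unadjusted p. Counted over every gene in the table, tested or not, 7.41% of the members and 2.39% of all genes were called higher. That total includes 5564 genes listed at 0 in both groups, which no member is. Over the 18387 genes listed above 0 in a group, 3.12% were called higher. At the unadjusted p, 1354 of these 18387 were higher and 930 lower. A gene enters the test through the group in which it is high, so the share among tested members is not given.

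All 3 collagen genes called are fibrillar. For them, and for the chain pair of collagen IV described further on, the DNA around the start of transcription is shown, since these are the collagen genes on which the comparison turns. Each window is 300 bases, from 250 before to 50 after the start, taken from RefSeq on the GRCm38.p6 build and printed on the gene's own strand. Capitals mark matches to the CCAAT box (CCAAT), to the TATA box (TATAAA) or to the GC box. The letters searched for the GC box were GGGCGG. Both strands were searched, so a match on the other strand appears as its reverse complement, and no matches overlapped.
Col1a2, chr6:4505368-4505667, plus strand: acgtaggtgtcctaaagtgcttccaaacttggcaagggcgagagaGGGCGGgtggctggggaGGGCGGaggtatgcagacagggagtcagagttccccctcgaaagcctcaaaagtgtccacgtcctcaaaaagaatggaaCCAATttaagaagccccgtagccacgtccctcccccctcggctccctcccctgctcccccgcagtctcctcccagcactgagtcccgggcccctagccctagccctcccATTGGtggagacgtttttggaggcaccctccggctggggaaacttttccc
Col27a1, chr4:63215162-63215461, plus strand: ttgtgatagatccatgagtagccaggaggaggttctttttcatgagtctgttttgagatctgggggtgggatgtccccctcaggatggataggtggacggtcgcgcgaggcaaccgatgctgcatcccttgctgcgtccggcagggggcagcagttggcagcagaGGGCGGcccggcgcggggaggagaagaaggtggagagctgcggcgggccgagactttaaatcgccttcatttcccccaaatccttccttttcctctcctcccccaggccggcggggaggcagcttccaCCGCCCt
Col11a2, chr17:34038888-34039187, plus strand: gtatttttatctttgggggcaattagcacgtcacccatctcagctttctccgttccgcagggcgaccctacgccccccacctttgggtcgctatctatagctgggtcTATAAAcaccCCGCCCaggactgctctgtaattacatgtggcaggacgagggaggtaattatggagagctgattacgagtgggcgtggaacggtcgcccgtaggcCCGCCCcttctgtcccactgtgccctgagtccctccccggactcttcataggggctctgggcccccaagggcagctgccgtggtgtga
Col4a1, chr8:11312777-11313076, minus strand: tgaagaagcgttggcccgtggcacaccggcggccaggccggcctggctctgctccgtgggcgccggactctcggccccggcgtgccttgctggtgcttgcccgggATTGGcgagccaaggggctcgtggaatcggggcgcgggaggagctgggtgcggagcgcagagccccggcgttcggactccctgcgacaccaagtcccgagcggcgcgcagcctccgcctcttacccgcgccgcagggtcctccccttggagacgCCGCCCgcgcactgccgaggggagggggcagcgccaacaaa
Col4a2, chr8:11312555-11312854, plus strand: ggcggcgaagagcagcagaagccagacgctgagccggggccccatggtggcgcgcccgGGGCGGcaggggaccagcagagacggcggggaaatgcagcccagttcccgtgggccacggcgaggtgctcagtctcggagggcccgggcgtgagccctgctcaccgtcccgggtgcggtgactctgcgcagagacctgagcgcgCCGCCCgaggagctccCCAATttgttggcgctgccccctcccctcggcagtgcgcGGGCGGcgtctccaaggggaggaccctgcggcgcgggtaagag
The Col1a2 window holds 2 CCAAT boxes and 2 GC boxes. Col27a1 holds 2 GC boxes and no match to the other motifs, and Col11a2 holds 2 GC boxes and 1 TATA box. Col4a1 holds 1 CCAAT box and 1 GC box, and Col4a2 holds 1 CCAAT box and 3 GC boxes. A GC box was found in 56.8% of the 44 windows of the 40 members with a window and in 35.7% of all 32851 windows. A CCAAT box was found in 31.8% and 37.4%, and a TATA box in 13.6% of both. Windows of members had a median GC content of 59.3% against 52.7% over all, and the part of base composition in these shares was not tested. A match is a stretch of letters and was not tested as a site.

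Among the collagens, only fibrillar genes were called. Col1a2, which encodes a chain of collagen I and lies at chromosome 6, 4455697 to 4491543 of the mm9 build, stood at 0.0837 FPKM in GFP and 1.60 FPKM in p16. It rose 19.1-fold (authors' deposited table, q = 0.00245), a log2 ratio of 4.25, or 1.26 on the log2(FPKM + 1) scale. Col27a1, a fibrillar collagen best known from cartilage, at chromosome 4, 62876446 to 62996024, rose from 1.01 to 2.65 FPKM, or 2.63-fold (authors' deposited table, q = 0.00245). Its log2 ratio was 1.40, or 0.86 on the log2(FPKM + 1) scale. Col11a2, a chain of the cartilage collagen XI at chromosome 17, 34176382 to 34203187, rose from 0.367 to 0.959 FPKM, or 2.61-fold (authors' deposited table, q = 0.0322), a log2 ratio of 1.39 or 0.52 on the log2(FPKM + 1) scale. Both Col27a1 and Col11a2 were thus already measurable in the GFP group, whereas Col1a2 was close to 0 there. Adjusted over genes with a mean of at least 1 FPKM, Col1a2 and Col11a2 drop out of the genes considered, and at a q below 0.01 Col11a2 is not called.

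The other 8 fibrillar genes were not tested. Col1a1, the partner of Col1a2 in collagen I, was listed at 0.0456 FPKM in GFP and 0.343 FPKM in p16. Col3a1, the gene of collagen III, stood at 0.169 and 0.186 FPKM, nearly level. The 3 chains of collagen V, which co-assembles with collagen I, were at 0.00400 and 0.137 FPKM for Col5a1, 0.0534 and 0.0827 FPKM for Col5a2, and 0.0163 and 0.135 FPKM for Col5a3. Col2a1, Col11a1 and Col24a1 stayed below 0.01 FPKM in both groups. In all, 10 of 11 fibrillar genes had the higher value in p16, or 7 of 11 with quantile normalization, under which Col2a1, Col3a1 and Col5a2 had the lower value. The class summed to 1.76 FPKM in GFP and 6.11 FPKM in p16, the widest gap in summed FPKM among the collagen classes.

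**Figure D2:**
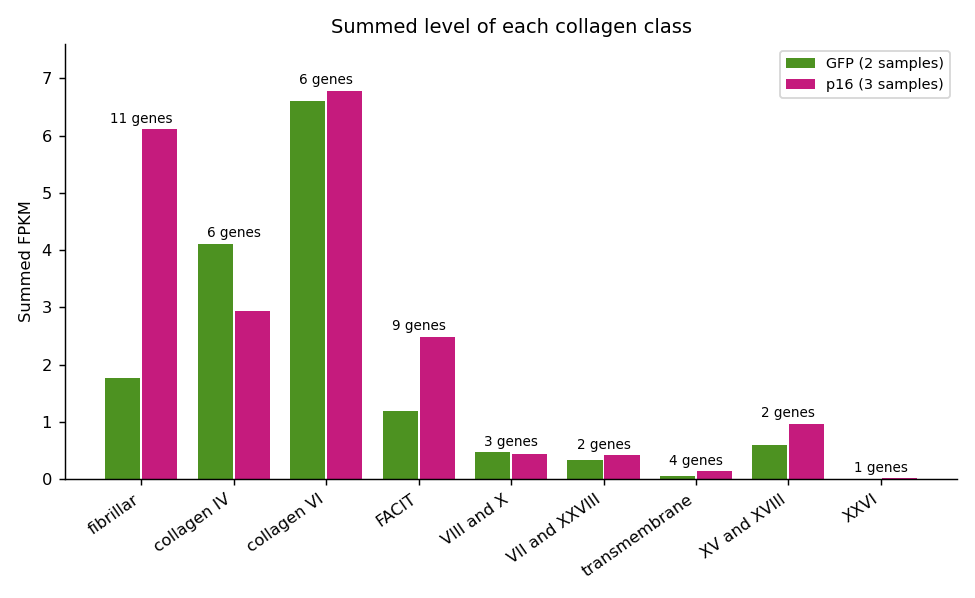
Summed FPKM of each collagen class in the GFP group (green) and the p16 group (magenta), with the number of genes above each pair of bars. The fibrillar class stood at 1.76 and 6.11 FPKM, collagen IV at 4.11 and 2.93 FPKM and collagen VI at 6.60 and 6.78 FPKM.

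Summed over the 44 collagen genes, the level was 15.1 FPKM in GFP and 20.3 FPKM in p16. In GFP, 74.0% of it came from Col6a6, Col4a1 and Col27a1, and in p16 the same 3 genes made up 50.7%. Without Col6a6, Col4a1 and Col27a1, the remaining 41 genes summed to 3.92 FPKM in GFP and 9.99 FPKM in p16. These sums have no error, since the table holds no value per sample.

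Among the proteoglycans, Dcn, at chromosome 10, 96942134 to 96980796 of mm9, was at 0.133 FPKM in GFP and 2.29 FPKM in p16. It rose 17.2-fold (authors' deposited table, q = 0.00752), a log2 ratio of 4.11 or 1.54 on the log2(FPKM + 1) scale. Bgn, the gene of biglycan, stood at 0.0964 and 0.458 FPKM and was not called (authors' deposited table, q = 0.126). Lum, the gene of lumican and the neighbour of Dcn 47.3 kb away, was at 0.0450 FPKM in GFP and 0.00907 FPKM in p16 and was not tested. Of these 3 related genes, Dcn and Bgn thus had the higher value in p16 and Lum the lower.

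The glycoprotein genes all had the higher value in p16, though Fbn1 had the lower one with quantile normalization, and none was called. Sparc, whose product binds collagen, stood at 0.730 and 1.44 FPKM (authors' deposited table, q = 0.238). Fn1, the fibronectin gene, was at 0.00850 FPKM in GFP and 0.412 FPKM in p16 and was not tested. Postn, the periostin gene, was listed at 0.0306 and 0.125 FPKM, and Fbn1, which encodes fibrillin-1 of microfibrils, at 0.00527 and 0.00729 FPKM. Fn1 was therefore close to 0 in the GFP group, and its ratio rests on that value.

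The receptor genes were low in both groups and not tested. Pdgfra stood at 0.00528 FPKM in GFP and 0.297 FPKM in p16. Pdgfrb stood at 0.0299 and 0.138 FPKM. Pdgfra ranked above 0.967% of the genes listed above 0 in GFP and above 24.5% of those in p16.

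**Figure D3:**
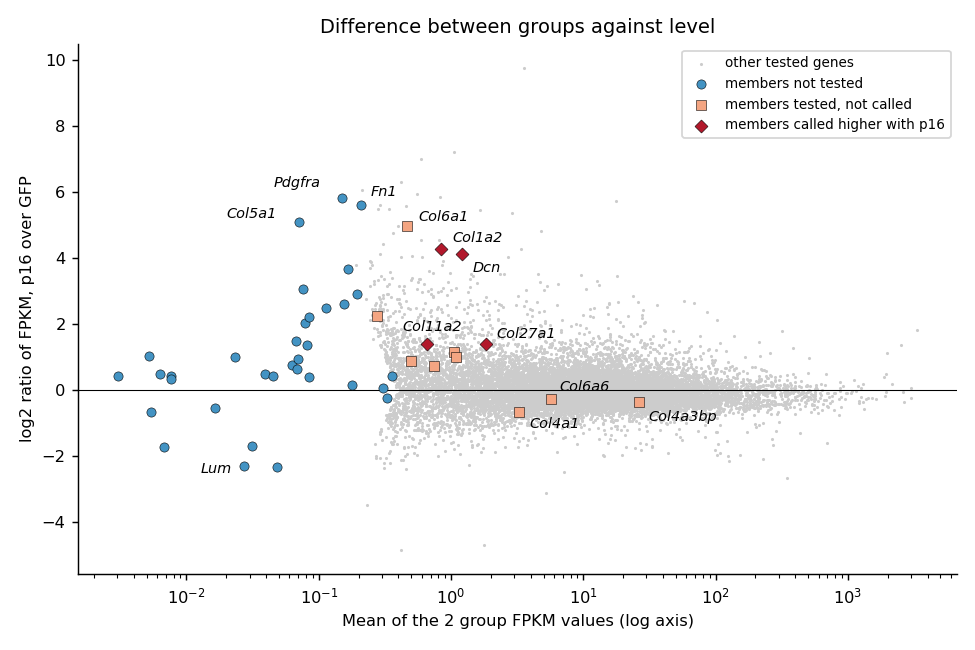
The log2 ratio of FPKM (p16 over GFP) against the mean of both group values on a log axis, for tested genes (grey) and for the members listed above 0 in both groups (coloured by test status). The called members Col1a2, Dcn, Col27a1 and Col11a2 lie between mean levels of 0.1 and 10 FPKM, where grey points also spread widely above 0.

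Basement membrane collagen IV was uneven. Col4a1, at chromosome 8, 11198423 to 11312826 of mm9, was among the most abundant collagen genes at 3.99 FPKM in GFP and 2.49 FPKM in p16. That difference was not called (authors' deposited table, q = 0.194), and Col4a1 is the member that was lower at an unadjusted p below 0.05. Col4a2, whose product assembles with that of Col4a1, was listed at 0.0462 and 0.117 FPKM and was not tested. The level of Col4a1 was thus 86.5 times that of Col4a2 in GFP and 21.2 times in p16. The loci of this pair are separated by 2 bases in the table, and the RefSeq starts of the windows printed above lie 21 bases apart on opposite strands, so that 78 bases are common to both windows. The other pairs of this class were low throughout: Col4a3 and Col4a4 stayed below 0.1 FPKM in both groups, and Col4a5 and Col4a6 were at 0.0348 and 0 FPKM in GFP and 0.192 and 0.0914 FPKM in p16. As a class, collagen IV summed to 4.11 FPKM in GFP and 2.93 FPKM in p16, because Col4a1 holds most of it.

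Collagen VI held the most abundant collagen gene. Col6a6, at chromosome 9, 105591747 to 105730415, stood at 6.19 FPKM in GFP and 5.14 FPKM in p16 and was not called (authors' deposited table, q = 0.707). It ranked above 53.9% and 51.7% of the genes listed above 0 in the respective groups. Its neighbours in the same gene cluster, Col6a5 and Col6a4, were listed at 0.00343 and 0.0482 FPKM in GFP and at 0.00695 and 0.0147 FPKM in p16. Col6a1, at 0.0292 FPKM in GFP and 0.907 FPKM in p16, had a 31.1-fold higher value with p16 that was not called (authors' deposited table, q = 0.0580). Its partner Col6a2, 85.4 kb away, was at 0.0246 and 0.310 FPKM, and Col6a3 at 0.308 and 0.410 FPKM. Col6a1 and Col6a2 therefore shared the pattern of Col1a2, close to 0 in GFP and higher in p16, whereas Col6a3 was at 0.308 FPKM in GFP already.

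Chains that assemble into the same collagen were often at unlike levels, compared here in FPKM, which is scaled by length. Col1a2 was at 1.84 times the level of Col1a1 in GFP and 4.66 times in p16, although collagen I holds more of the Col1a1 chain. Col9a2, a chain of collagen IX that coats cartilage fibrils, stood at 0.650 FPKM in GFP and 1.44 FPKM in p16 (authors' deposited table, q = 0.129). Its partners were low, with Col9a3 at 0.0468 and 0.0778 FPKM and Col9a1 at 0.0103 and 0.00311 FPKM. Col11a2 in p16 was at 112 times the level of Col2a1 and 389 times that of Col11a1, the genes of the chains it joins in cartilage.

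**Figure D4:**
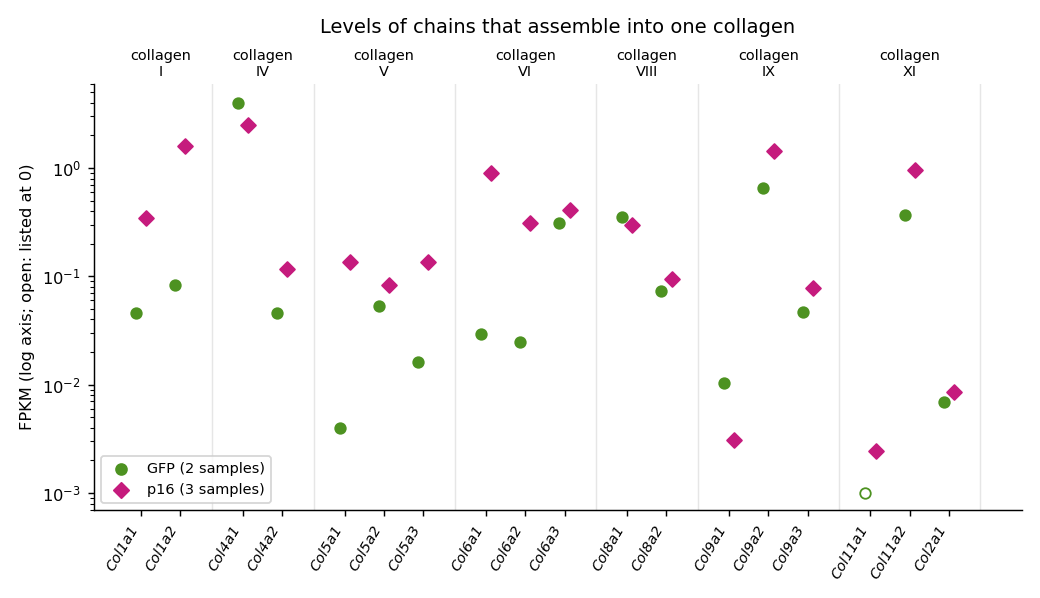
FPKM on a log axis of genes whose chains join in 1 collagen, in the GFP group (circles) and the p16 group (diamonds), with an open symbol for a gene listed at 0. Col4a1, Col9a2 and Col11a2 stand more than 10 times above their partners in both groups, while the chains of collagen V lie close together in p16.

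The remaining collagens were mostly close to 0. Col18a1, a basement membrane collagen from which endostatin is cleaved, stood at 0.562 and 0.918 FPKM (authors' deposited table, q = 0.364), and Col20a1 at 0.352 and 0.642 FPKM (authors' deposited table, q = 0.322). Col8a1 and Col28a1 were at 0.354 and 0.303 FPKM in GFP and 0.299 and 0.313 FPKM in p16. Col16a1 was at 0.0437 and 0.266 FPKM. The 4 transmembrane collagens, Col13a1, Col17a1, Col23a1 and Col25a1, stayed below 0.1 FPKM in both groups. Among the members, 6 were listed at 0 in GFP and 1, Col12a1, in p16, and in these 7 the other group's value was at most 0.0914 FPKM. Col4a3bp, the name match, was far above every collagen at 30.0 FPKM in GFP and 22.9 FPKM in p16 and was not called (authors' deposited table, q = 0.472).

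The direction of the values was read against the whole table. Of the 54 members, 43 had the higher value in p16 and 11 the lower, or 31 and 23 with quantile normalization. Over all 18387 genes listed above 0 in a group, 53.2% had the higher value in p16, or 45.9% with quantile normalization. Low genes leaned the same way in the deposited values: of 5120 untested genes listed above 0, 65.9% had the higher value in p16, and of the 41 untested members 33 did. Fewer genes were listed at 0 in p16, which holds more samples (6015), than in GFP (6569). The part of the number of samples per group in these counts was not tested. On the log2(FPKM + 1) scale the median difference was 0.04 over the 54 members and 0.00 over all genes, 5564 of which are 0 in both groups. Over the 18387 genes listed above 0 in a group it was 0.0099. The 41 untested members had a median of 0.022, close to 0.017 over the 5120 untested genes listed above 0.

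GC content of the transcript moved with the calls across the table. Of tested genes in the highest of 5 bins of GC content, 8.34% were called higher, against 1.60% in the lowest bin. The median over the members was 53.5%, beside 49.7% over all tested genes, and 21 of the 54 lay in the highest bin. Col1a2, Col27a1 and Col11a2 were in the highest bin, at 55.7%, 59.4% and 62.9%. Dcn was in the lowest bin, at 37.4%. Among tested genes with a mean below 2 FPKM, where all 4 called members lie, 6.66% were called higher and 0.740% lower. The part of GC content and level in the calls of the members was not tested.

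The machinery that makes collagen was measured in both groups, with few calls. Of 23 genes of collagen biosynthesis in the table, 19 were tested, and the authors' deposited table (Cuffdiff) has 1 of them higher and none lower. That gene was Serpinh1, the collagen chaperone HSP47, which rose to 3.24 FPKM from 1.37 FPKM (authors' deposited table, q = 0.0466). P4hb, a subunit of the prolyl hydroxylase that is also a general folding enzyme of the secretory pathway, stood at 582.1 and 589.5 FPKM, and Sec24d, of the secretory vesicle coat, at 68.7 and 108.7 FPKM. Neither passed in the authors' deposited table (q = 0.986 and q = 0.132). At an unadjusted p below 0.05, 4 of the 19 were higher and none lower.

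Of 16 genes of collagen processing and crosslinking, 7 were tested and none was called by Cuffdiff in the authors' deposited table, with 3 higher and 1 lower at an unadjusted p below 0.05. The procollagen proteinase gene Bmp1 stood at 30.0 and 32.7 FPKM and the convertase gene Furin at 13.6 and 22.4 FPKM. Of 11 collagen receptor genes 4 were tested and none was called by Cuffdiff, with 1 higher and none lower at an unadjusted p below 0.05. Ddr1, the collagen receptor kinase of epithelia, stood at 48.1 and 81.7 FPKM (authors' deposited table, q = 0.0810), and Itgb1, the integrin beta 1 gene, at 69.4 and 59.5 FPKM. Of 14 collagen-degrading enzymes and inhibitors 4 were tested and none was called by Cuffdiff, with 2 higher and none lower at an unadjusted p below 0.05. Timp2, a metalloproteinase inhibitor, stood at 5.90 and 7.37 FPKM and Mmp15 at 0.550 and 1.12 FPKM. Of 37 other genes of the interstitial matrix 14 were tested, and the authors' deposited table has 2 of them higher and none lower. These were Smoc1, a calcium-binding matrix protein related to SPARC, which rose from 0.787 to 5.61 FPKM, and Efemp2, the elastic fibre protein fibulin-4, which rose from 4.50 to 13.1 FPKM (authors' deposited table, q = 0.00245 for each).

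Markers of cells that make such matrix were measured in the same libraries. In bulk samples, fewer cells of a type and less RNA per cell cannot be told apart. Of 26 fibroblast and stellate cell markers 9 were tested, and the authors' deposited table has 2 of them higher and none lower. These were Vim, the intermediate filament gene, at 0.328 FPKM in GFP and 9.18 FPKM in p16 (authors' deposited table, q = 0.00245), and Prrx1, a mesenchymal transcription factor, at 0.0775 FPKM in GFP and 0.529 FPKM in p16 (authors' deposited table, q = 0.0118). At an unadjusted p below 0.05, 4 of the 9 were higher and 2 lower. Besides Vim and Prrx1, the higher ones were S100a4, at 20.0 and 33.3 FPKM, and Loxl1, at 0.0258 and 0.698 FPKM. The lower ones were Ngfr, a nerve growth factor receptor gene, at 0.728 FPKM in GFP and 0.216 FPKM in p16, and Igfbp5, at 1.55 and 0.840 FPKM, neither called (authors' deposited table, q = 0.0619 and q = 0.141). Of the 26, 14 had the higher value in p16 and 8 the lower, or 11 each with quantile normalization. Of the 26, 6 were listed at 0 in GFP and 5 in p16, among them Gli1, Meox1, Meox2 and Des in both groups, and their sum was 43.9 FPKM in GFP and 72.8 FPKM in p16. Most of that sum came from S100a4 and Gsn. Thy1 stood at 0.0618 and 0.138 FPKM and Acta2 at 0.0728 and 0.0149 FPKM. The part of fibroblasts or stellate cells in the values of Col1a2, Dcn, Col6a1, Fn1 and Pdgfra was not tested.

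Pericyte and smooth muscle markers summed to 1.62 FPKM in GFP and 2.07 FPKM in p16, with 2 of 14 tested. Endothelial markers summed to 4.77 and 5.70 FPKM, with 2 of 16 tested. None of the 4 was called by Cuffdiff in the authors' deposited table, and none had an unadjusted p below 0.05. Tagln and Mcam stood at 0.845 and 0.401 FPKM in GFP and 0.955 and 0.502 FPKM in p16, and Esam and Egfl7 at 2.49 and 1.51 FPKM in GFP and 3.04 and 1.54 FPKM in p16. Pecam1 and Cdh5, which define endothelial cells, were at 0.209 and 0.0118 FPKM in GFP and 0.262 and 0.0150 FPKM in p16. In the pericyte list, 10 genes had the higher value in p16 and 1 the lower, or 6 and 5 with quantile normalization. Of the 16 endothelial markers, 11 had the higher value in p16 and 4 the lower, or 4 and 11 with quantile normalization. Col4a1 stood at 3.99 FPKM in GFP and 2.49 FPKM in p16. The part of endothelial cells in the values of Col4a1 was not tested.

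Of 17 macrophage and leukocyte markers 3 were tested and 1 was higher, Cd68, at 0.229 FPKM in GFP and 1.95 FPKM in p16 (authors' deposited table, q = 0.0498). C1qa stood at 25.9 and 35.1 FPKM, while Ptprc, the pan-leukocyte gene, was at 0.00329 and 0.0269 FPKM. Of these 17, 6 had the higher value in p16 and 9 the lower, or 5 and 10 with quantile normalization, among the lower ones C1qb, at 0.174 and 0.0109 FPKM, and Tyrobp, at 0.332 and 0 FPKM. The list summed to 27.5 and 38.5 FPKM, and nearly all of the gap between these sums lay in C1qa and Cd68. Of 10 Schwann cell markers 5 were tested and 1 was higher, Erbb3, at 0.500 FPKM in GFP and 1.23 FPKM in p16 (authors' deposited table, q = 0.0486). Ngfr, which is on this list too, was the 1 tested gene of it that was lower at an unadjusted p below 0.05. Of the 10, 6 had the higher value in p16 and 4 the lower, or 5 each with quantile normalization. Sox10 was at 0.0115 and 0.00772 FPKM, Ncam1 at 7.55 and 8.91 FPKM, and the list summed to 17.4 and 19.7 FPKM. Acinar markers summed to 48.3 and 64.3 FPKM, with none of 15 tested called by Cuffdiff and 2 higher at an unadjusted p below 0.05. The largest part of that sum was Bhlha15, at 20.5 and 35.5 FPKM, ahead of Ctrb1, at 6.58 and 6.20 FPKM. Most of the gap between the acinar sums lay in Bhlha15. Among the acinar markers, 7 had the higher value in p16 and 11 the lower, or 5 and 13 with quantile normalization. Of 12 duct markers 10 were tested, and the authors' deposited table has Cldn4, Spp1 and Sox9 higher and Krt19 lower. Sox9, a transcription factor of duct and cartilage cells, rose from 0.122 to 0.492 FPKM (authors' deposited table, q = 0.0322). Krt19 fell from 5.75 to 1.79 FPKM (authors' deposited table, q = 0.0105). The list summed to 786.8 and 1322 FPKM, and most of both sums came from Krt18, Epcam, Cldn4 and Krt7. Most of the gap between these sums lay in Cldn4, at 143.3 FPKM in GFP and 486.5 FPKM in p16. Among the duct markers, 10 had the higher value in p16 and 2 the lower, also with quantile normalization.

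The label of the cells was met by the abundance of beta cell genes. Of 19 beta cell markers 16 had a value, all at 41.7 FPKM or more, and Ins1, Ins2 and Iapp are listed at 0 because they had too many fragments to quantify. Among those called in the authors' deposited table, the glucose transporter gene Slc2a2 and the transcription factor gene Isl1 were lower. No collagen gene reached the level of the lowest of these markers in either group.

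**Figure D5:**
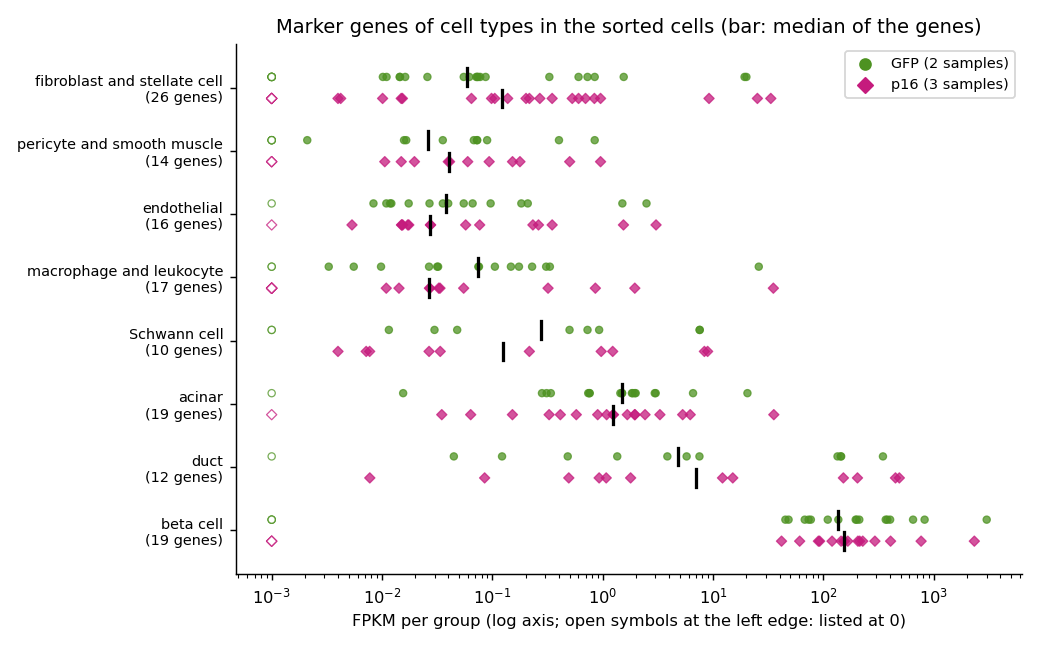
FPKM of each marker gene of 8 cell types in the GFP group (circles) and the p16 group (diamonds) on a log axis, with a bar at the median of the genes and open symbols at the left edge for genes listed at 0. Beta cell markers lie above 40 FPKM in both groups apart from those listed at 0, while the medians of fibroblast, pericyte and endothelial markers lie near 0.1 FPKM or below.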

How the data were processed

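RNA-seq was done on total RNA from sorted GFP-positive cells of 5 samples, 2 labelled GFP and 3 labelled p16. The submitters' processing notes name TopHat2, Cuffnorm, Cuffdiff and the mm9 build. Their versions, the annotation, the scaling of libraries and the use of strand were not stated in the sources used here. The deposited table holds 1 FPKM value per group and gene, with a p-value and a q-value by the authors. Depth per sample is unknown. The design text counts as many mice as samples, but the labels number the samples without saying that each is a separate mouse. Whether the authors' p-values reflect spread between mice alone is therefore not certain from the labels.

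FPKM is no count, and no count model was run. Limma on values per sample had been planned only for a table that holds them, so what is described are the authors' own calls, at q-values below 0.05. Of 23951 genes they had tested 13264, and their q-values equalled Benjamini-Hochberg values over these within 5.23e-07. Ratios carry no pseudocount unless said, and no fold is given against a value of 0. Locus starts in the table count from 0, as 266 of 268 microRNA loci showed against hairpin lengths, and 1 was added. Reads where loci overlap are uncertain. Transcript GC content came from the longest transcript per symbol in GENCODE release M21 (99.0% of tested genes matched) and promoter windows from RefSeq.

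The members and the 13 gene lists were chosen with earlier results of these data known. Named were members called, the 8 most abundant, the 9 that are no collagens, the name match, and of each list up to 4 called genes of largest change or, with fewer than 2 called, the 2 most abundant; other members are given beside their class, and other list genes were named after their values were seen. Alternatives changed the q threshold, the genes adjusted over, the pseudocount, the scaling and filters on low values. The adjustment was tested on simulated p-values. Python 3.11.15 with numpy 2.4.6, pandas 2.3.3 and matplotlib 3.10.9 was used. Some items of the marker lists are not reported here.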

Additional observations from a re-analysis of the deposited data

How the results depend on the processing

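No paired analysis was possible because the table holds 1 value per group, and for the same reason no replicate could be left out. The count of 4 called members was 3 at a q below 0.01, where Col11a2 was lost, and 5 at a q below 0.1, where Col6a1 was gained. With the authors' p-values adjusted again over genes with a mean of at least 1 FPKM it was 2, Col27a1 and Dcn, because Col1a2 and Col11a2 lie below that level, and over genes with a mean of at least 5 FPKM it was 0, because the 2 members left are Col6a6 and Col4a3bp. The median log2 difference of the members, 0.04 with a pseudocount of 1, was 0.26 with 0.1, 0.0086 with 5, 0.0065 with quantile normalization, and 0.50 both over the 7 members with a mean of at least 1 FPKM and over the 13 tested ones. The 43 members with the higher value in p16 became 4 of 7 with a mean of at least 1 FPKM and 10 of 13 tested. With a difference of at least 1.5-fold and a higher value of at least 0.1 FPKM, it was 21 of 22. The share over all such genes was 64.2%. A member close to 0 in GFP can pass these filters only through its p16 value. The filtered counts and medians therefore give no support on direction. Quantile normalization turned the direction of 12 members, of which Fbn1 is named by rule. It left the 4 called members higher, and the cause of the turns was not tested. The ratio of summed collagen FPKM, 1.34, was 1.38 with median ratio scaling, 1.16 with quantile normalization, 1.70 without Col6a6 and 1.05 over all members, of which Col4a3bp holds most of the sum. Depth is unknown, so how far values below 0.1 FPKM can be told from 0 cannot be given.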

Other observations

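Of 16 genes of collagen processing and crosslinking, 15 had the higher value in p16, or 11 with quantile normalization, and of 14 collagen-degrading enzymes and inhibitors 11 did, or 7. The lysyl oxidase gene with the highest level, Loxl2, had the lower value in p16, at 12.8 and 8.48 FPKM (authors' deposited table, q = 0.225). Within these lists, some genes that act on collagen outside the cell, named after their values were seen, had the same shape as Col1a2 and Col6a1, close to 0 in GFP and higher in p16, without passing in the authors' deposited table. Pcolce, an enhancer of procollagen processing, stood at 0.0878 and 0.924 FPKM (q = 0.0559). Mmp14, a membrane-bound collagenase, stood at 0.0488 and 0.795 FPKM (authors' deposited table, q = 0.0786). Loxl1, a lysyl oxidase that is also on the list of fibroblast and stellate cell markers, stood at 0.0258 and 0.698 FPKM (authors' deposited table, q = 0.149). Mmp2, a gelatinase, stood at 0.0116 and 0.567 FPKM (authors' deposited table, q = 0.525).

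The size of a ratio and the authors' call did not run in parallel. Col6a1, at 31.1-fold, did not pass while Col11a2, at 2.61-fold, did. Pdgfra and Fn1 had ratios of 56.3 and 48.5 and were not tested. Bgn was tested with 0.458 FPKM as its higher value, and Fn1 and Col6a3 were not with 0.412 and 0.410 FPKM.

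Of 9 pairs of members with loci at most 250 kb apart, Col3a1 with Col5a2, Col6a2 with Col6a1, and Col4a6 with Col4a5 both had the higher value in p16, and the other 6 pairs differed in direction. With quantile normalization the count turned round, to 6 pairs alike and 3 unlike. Col10a1 shares its locus with Nt5dc1, which stood at 9.20 and 6.25 FPKM, and Col9a3 shares its locus with Tcfl5, so how reads were divided there is uncertain.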
